A study of Mus musculus with 7 samples.

Results

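Open chromatin regions (OCRs) at the 3' ends of protein-coding genes were examined in HPC7, a mouse hematopoietic progenitor cell line that grows in medium with stem cell factor. In bulk ATAC-seq, the Tn5 transposase cuts accessible DNA, and a peak caller marks the places where the cuts pile up. The data were the peak lists of 7 libraries, HPC7-1, HPC7-2 and HPC7-4 to HPC7-8, which the labels put in 1 group with no treatment named and which, by the study's methods, came from independent culture batches. The peak names inside the lists begin with VD_rep in HPC7-1, HPC7-2 and HPC7-4 and with EtOH_rep in HPC7-5 to HPC7-8. Neither the labels nor the study's methods say what these names stand for, so the libraries were not split by them, and whether the 7 were grown under 1 condition cannot be told from these sources. In what follows n = 7 stands for 7 libraries of the same line.

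The members were the merged OCRs, joined where peaks overlapped by at least 1 bp, that met 6 conditions. They had a peak in all 7 lists, lay on an autosome, were under 1500 bp wide, came within 1 kb of the 3' end of a protein-coding gene in GENCODE M21 on mm10, lay more than 3 kb from any transcript start, and overlapped no coding sequence (CDS). The members were thus chosen by 2 measured values, the presence of a peak in every list and the merged width. Fold enrichment was not used directly, but the condition on the lists favours intense OCRs. Among OCRs at these positions the median of the mean fold enrichment was 2.43 for the 674 in 1 list, 4.19 for the 206 in 6 lists and 8.84 for the members, so the levels below describe a set that was selected on being called in every library. Of 144931 merged OCRs, 66979 (46.2%) had a peak in all 7 lists, 65686 of these were on autosomes and 50285 of those were under 1500 bp. Within 1 kb of a protein-coding 3' end there were 2123, of which 974 were left out for a transcript start within 3 kb and 197 for overlapping CDS, so that 952 members remained. They lay at the ends of 981 genes. At the same positions 2649 merged OCRs had a peak in any list, of which 35.9% were in all 7, against 37.7% for intronic, 40.1% for intergenic and 41.2% for OCRs within 3 kb of a transcript start, all of them autosomal and under 1500 bp. Since sharing chose the members, these shares are a description.

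The 3' end of a gene is where the transcript is cleaved and polyadenylated, a step that follows an AATAAA signal in the nascent RNA and precedes the release of RNA polymerase II. Open chromatin near such an end can be an enhancer, a binding site of the insulator protein CTCF, or an unannotated promoter, and ATAC-seq alone does not tell these apart. Neighbouring genes can also end tail to tail, with their 3' ends facing each other across a short stretch of DNA.

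The lists held between 84593 (HPC7-6) and 132852 (HPC7-1) peaks. They give no read depth, so no counting interval can be set on a single value. The cell type was checked at gene starts. Of 8 progenitor genes, 7 (Kit, Cd34, Lmo2, Lyl1, Spi1, Tal1 and Runx1) had a peak within 1 kb of the start in all 7 lists, and Gata2 had none at its annotated gene start. None of 3 T cell genes and none of 3 B cell genes had one in any list. Of the liver genes Alb had none and Apoa1 had one in 1 list, and of the neuron genes Rbfox3 had none and Snap25 had one in all 7.

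Matches to known binding motifs lie within 100 bp of the summits of many members, and 12 such sites are shown because they belong to intense members described below. The first 6 are the sites with a match to the core CTCF consensus in the most intense members that hold one. Each is 30 bases of mm10, read 5′ to 3′ on the strand of the match, with the matching letters in capitals.
Csrp1, chr1:135753081-135753110, minus strand: cctgcatggCCAGCAGAGGGCagcctgtct
Necap2, chr4:141065332-141065361, minus strand: ccgtagcggCCAGCAGAGGGCatcagagcc
Scgb1a1, chr19:9082627-9082656, minus strand: gcgtcgtggCCACCAGGGGGCagtgtagtc
Skap2, chr6:51858059-51858088, minus strand: cctaagtggCCAGCAGATGGCagcagcttg
Aldh9a1, chr1:167370059-167370088, plus strand: tgggttacaCCAGCAGATGGCgcccaagct
Wfikkn2, chr11:94236230-94236259, plus strand: ccatatgcaCCACTAGATGGCagcatcaag

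The other 6 come from the most intense members that have no CTCF match, do not recur elsewhere in the genome and hold a match to one of the other motifs searched. Members with none of these letters, such as those at 9930022D16Rik and Igsf23, were passed over. At P2ry14 and Pdik1l the capitals mark AGATAA, which factors of the GATA family bind. At Gm49337, Iqschfp and Rcl1 they mark TGTGGT, the letters of RUNX factors. At Slc27a3 they mark TGAATCA, which fits the search pattern TGANTCA. The AP-1 motif has C or G at the centre, so this match is not its consensus. A match of letters is not measured binding.
P2ry14, chr3:59114090-59114119, minus strand: gacatatcaggcAGATAAggaggctgcaaa
Gm49337, chr4:116301140-116301169, plus strand: tgcttccgtggcTGTGGTttaagccttcag
Slc27a3, chr3:90383911-90383940, plus strand: caaattactaaTGAATCAgtctgtgtgcag
Pdik1l, chr4:134273617-134273646, plus strand: cttccgctggaaAGATAAagttttgccgtg
Iqschfp, chr3:68624784-68624813, minus strand: agaggctaaggcTGTGGTttctggctgtca
Rcl1, chr19:29142517-29142546, minus strand: ggaagctgcagtTGTGGTttggtggtagag

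The first question was where peaks lie around a 3' end. Peak summits were few at the end itself and most frequent 250 to 500 bp downstream of it. Densities were counted as summits of any peak under 1500 bp per Mb of eligible bases, which are autosomal bases more than 3 kb from any transcript start and outside CDS, over the ends of 20807 genes. These densities use every peak of a library, whether shared or not. Over all eligible bases the density was 31.5 ± 5.66 summits per Mb (SD, n = 7). Within 1 kb it was 87.7 ± 15.2 on the downstream side and 68.2 ± 12.9 on the upstream side, where the gene lies.

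In bins of 250 bp from 5 kb upstream to 5 kb downstream, the density at 250 to 500 bp downstream was 3.44 ± 0.187 times that of all eligible bases in the same library. It was the highest of the 40 bins in 7 of 7 libraries. The 250 bp just upstream of the end had 1.56 ± 0.0934 times the density of all eligible bases and were the lowest bin in 5 of 7 libraries. The members followed the same shape, with 157 summits at 250 to 500 bp downstream and 37 in the 250 bp just upstream.

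Bins of 50 bp placed the minimum on the end. The density was 24.2 ± 2.47 summits per Mb in the 50 bp before the end and 31.9 ± 4.96 in the 50 bp after it, and it reached 131 ± 23.2 at 250 to 300 bp downstream. Within 100 bp of the end, the libraries lay between 30.4 and 41.5 summits per Mb. At 200 to 500 bp downstream they lay between 82.4 and 139, and at 200 to 500 bp upstream between 67.9 and 112. The 3 sets of values did not overlap between the end and either flank, and HPC7-1, the library with the most peaks, was highest in each. The downstream density was 3.06 ± 0.25 times and the upstream density 2.37 ± 0.19 times that at the end (SD, n = 7). These windows were chosen after the profile was seen and carry no test. Of the members, 25 had their summit within 100 bp of the end, 180 at 200 to 500 bp downstream and 95 at 200 to 500 bp upstream, or 9.98, 46.6 and 27.9 members per eligible Mb.

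The base composition moved with the profile. Over the eligible ends, G+C was 32.2% in the 50 bp before the end, 40.1% in the 50 bp after it and 44.7% at 250 to 300 bp downstream. G+C was already 44.8% at 100 to 150 bp downstream, where the density was 72.1 ± 14.6 summits per Mb. Its part in the profile was not tested.

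**Figure D1:**
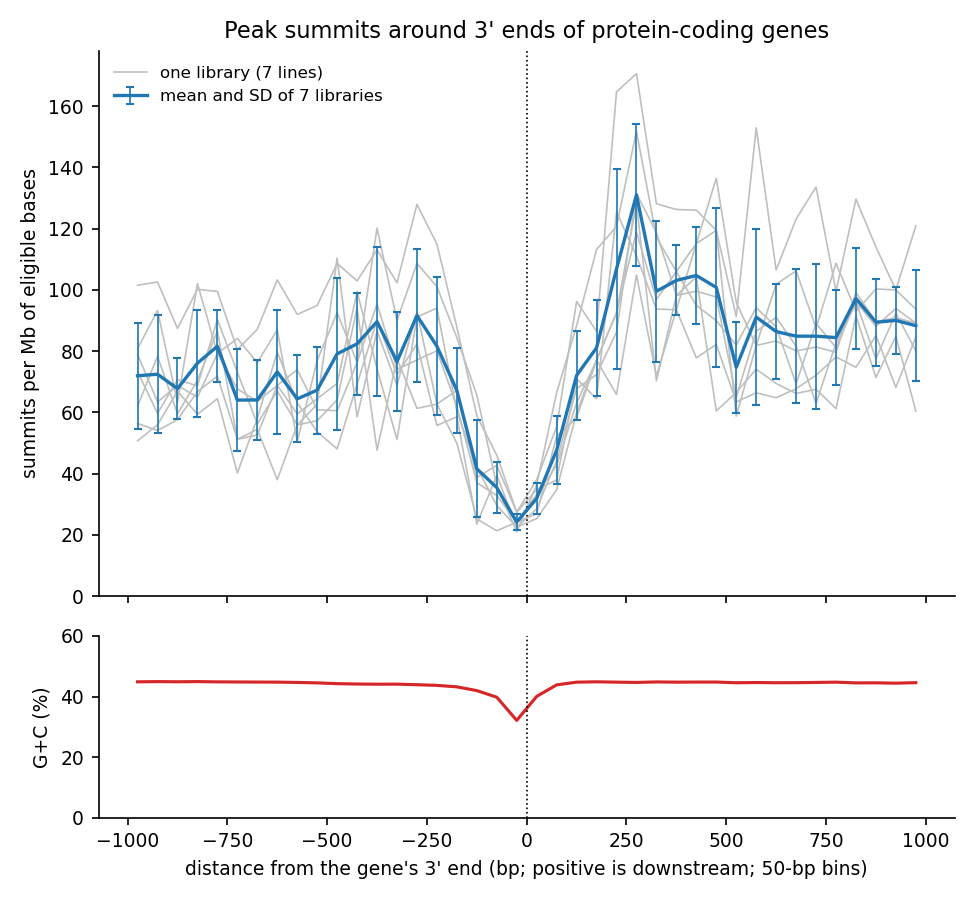
Upper panel: peak summits per Mb of eligible bases (y axis) against the distance from the 3' end of protein-coding genes in bp (x axis, positive is downstream, 50-bp bins), for each of 7 libraries (grey) and their mean with SD (blue). Lower panel: the percentage of G+C over the eligible ends in the same bins. The mean falls to 24.2 in the bin before the end and rises to 131 at 250 to 300 bp downstream.

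The ends were then set against their own flanks 2 to 5 kb away. Within 1 kb downstream, the log2 ratio of densities to the downstream flank lay between 0.09 and 0.21 with a mean of 0.16 ± 0.04 (SD), and it was above 0 in 7 of 7 libraries (two-sided exact permutation test that flips the sign of each library's value, p = 0.0156, Benjamini-Hochberg adjusted over 12 such tests p = 0.0234). The smallest p that 7 libraries allow is 0.0156. Upstream, the ratio lay between 0.07 and 0.11 with a mean of 0.09 ± 0.02, again above 0 in 7 of 7 libraries (same exact test, adjusted p = 0.0234). As linear ratios these are 1.11 downstream and 1.06 upstream. The kilobase next to the end was no denser than the one beyond it on the downstream side, with 87.7 ± 15.2 summits per Mb within 1 kb, 88.3 ± 15.4 from 1 to 2 kb and 78.6 ± 13.3 from 2 to 5 kb. Upstream the densities were 68.2 ± 12.9, 65.1 ± 11.1 and 64.0 ± 11.5. With the ends of every protein-coding transcript in place of the gene ends, neither held, at 0.00 upstream and -0.02 downstream. With the same number of peaks from every list, the upstream ratio fell to 0.00. At a -log10 q from 5 upward it was 0.04 and within 500 bp 0.05. Against flanks of 5 to 10 kb the downstream ratio was 0.33.

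The members sat more often outside the gene than in it. The summit was downstream of the nearest end in 629 members (66.1%) and upstream in 323 (33.9%). Of the eligible bases within 1 kb of an end 53.4% were downstream, and of the members with their summit within 1 kb 465 (65.3%) were downstream and 247 upstream. These shares are not fully alike, since an OCR was dropped when any part of it overlapped CDS or came within 3 kb of a start. CDS alone removed 197 OCRs, and how this moved the share of members was not tested. The summit lay outside any gene in 555 members, in a 3' untranslated region (UTR) in 270, in an intron in 107 and in another exon in 20. The annotated end fell inside the OCR in 183 members (19.2%). In 77 members (8.09%) the summit was inside another protein-coding gene than the one whose end was near. The nearest transcript start belonged to another gene in 465 members (48.8%), at a median distance over all members of 7529 bp. The median merged width was 680 bp (quartiles 505 and 955), and the summits of the 7 libraries in a member spanned a median of 75 bp.

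The members were of moderate intensity. Fold enrichment, the ratio of reads at the summit to the background of the same library as the peak caller gives it, is the intensity here. The members' median was 6.26 in HPC7-6, the lowest library, 8.52 in the median library and 11.1 in HPC7-8, the highest, with a mean of 8.89 ± 1.61 (SD, n = 7). HPC7-6 also had the fewest peaks. Averaged over libraries, single members lay between 3.24 and 292 with quartiles of 6.04, 8.84 and 14.4. There were 425 members at 10 or more, 13 at 50 or more and 132 under 5. A mean of 21.6% ± 8.32 of members were among the most intense 25% of a library's peaks, from 11.7% in HPC7-6 to 35.5% in HPC7-1.

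Libraries ranked the members alike. Over the 952 members, Spearman's rho between the fold enrichments of 2 libraries lay between 0.891 and 0.955 in the 21 pairs, where the points share the sequence and width of each OCR. The coefficient of variation of a member over the libraries had a median of 22.7%.

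Against other shared OCRs of the same width limit, members were close in intensity. Per library, the median log10 fold enrichment of members minus that of 17563 intronic OCRs lay between 0.0122 and 0.0399, with a mean of 0.0257 ± 0.0090 (SD), a ratio of 1.06, and was above 0 in 7 of 7 libraries (exact permutation test by sign flips, adjusted p = 0.0234). Against 15069 OCRs within 3 kb of a transcript start it was -0.0172 ± 0.0046, a ratio of 0.961, and below 0 in 7 of 7 (same exact test, adjusted p = 0.0234). That class holds only promoter OCRs under 1500 bp; with no limit of the width the difference was -0.304. It was -0.0752 with the start distance set at 1 kb, which changed both the members and the class near a start. Without HPC7-1 it was -0.0306. Within 500 bp of an end it was -0.0084 and no longer passed (exact permutation test by sign flips, adjusted p = 0.0625). Against 13849 intergenic OCRs it was 0.0119 ± 0.0156, above 0 in 5, below in 1 and 0 in 1 library, and did not pass the test (p = 0.0938 by the exact permutation test by sign flips). That difference turned to -0.0143 when unshared peaks were included, to -0.0074 without OCRs with a CTCF match and to -0.000142 without HPC7-2. It passed with equal list lengths (0.0177), within 500 bp of an end (0.0206), with CDS allowed (0.0176) and with no limit of the width (0.0162). A member's interval need only reach within 1 kb of an end, whereas an intronic OCR touches no exon. These rules favour wide members. With the distance taken from the summit, the differences were 0.0172 from intronic and 0.0018 from intergenic OCRs. The difference from intronic OCRs was 0.0165 without HPC7-2. It did not hold when OCRs with a CTCF match were left out of every class, an alternative added after the data were seen (0.0079, exact permutation test, adjusted p = 0.113), or when unshared peaks were included (0.0043, p = 0.75).

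**Figure D2:**
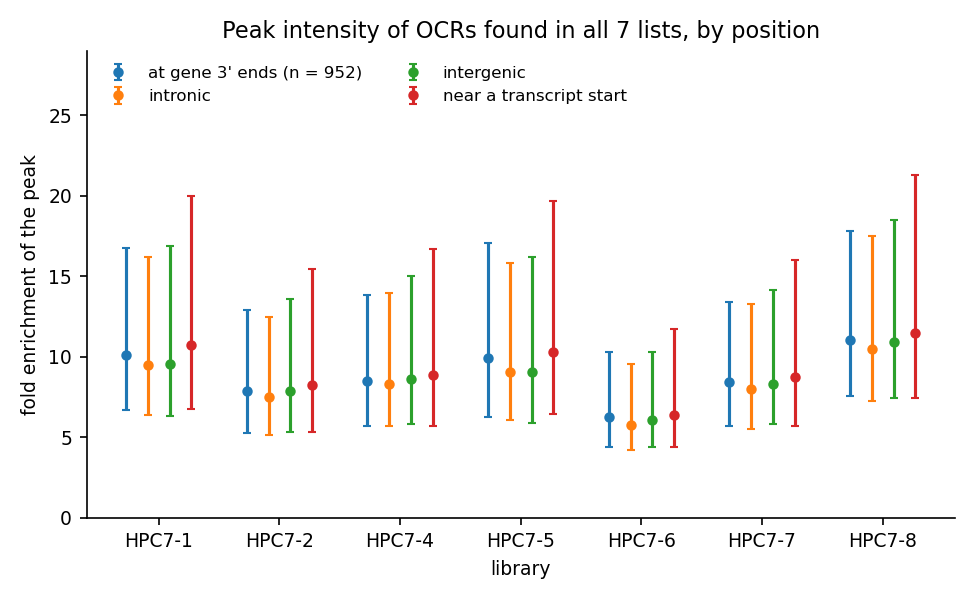
Fold enrichment (y axis) of OCRs found in all 7 lists and under 1500 bp, by library (x axis) and position; points are medians over OCRs and bars run from the lower to the upper quartile. The medians of members lie between 6.26 and 11.1 and within the quartiles of every other class in each library.

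The width of the members' peaks is given as a description, since the rule used the width and an interval that only has to reach within 1 kb of an end favours wide OCRs. The median width of the highest peak in a member was 420 bp in the lowest library, 477 bp in the median library and 645 bp in HPC7-1, the highest. It was 20.4 ± 20.4 bp above that of intronic and 19.4 ± 26.3 bp above that of intergenic OCRs (SD, n = 7), and HPC7-1 carried the largest differences, 63 and 75 bp. With the distance taken from the summit in place of the interval, the differences were 4.79 and 2.64 bp.

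The most intense member was in the 3' UTR of Lars2, which encodes the mitochondrial leucyl-tRNA synthetase. Its fold enrichment was 221 in HPC7-2, 294 in the median library and 366 in HPC7-5, with a mean of 292 ± 52.4 (SD, n = 7). The OCR spanned chr9:123461787-123462327, and its summit lay 670 bp upstream of the end. The whole window from 100 bp before to 100 bp after that summit aligned at 95% identity or more to parts of the genome elsewhere, in 7 alignments. Reads from several loci may thus be counted here, and whether they were was not tested. Of all members, 33 had at least 50% of their window aligned elsewhere, 3 of them among the 100 most intense, and 866 had no such alignment.

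The second was at P2ry14, a receptor for UDP-glucose, which lies within Med12l (chr3:59113351-59114846). Fold enrichment was 111 in HPC7-6, 163 in the median library and 196 in HPC7-4, with a mean of 163 ± 31.4. The summit was in the 3' UTR 268 bp before the end, no other genome position aligned to it, and the peak at the gene's own start had a mean of 16.8. All 7 values at the end were above those at the start. The AGATAA printed for P2ry14 lies 18 bp from the summit.

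The third was 833 bp downstream of Csrp1, which encodes a LIM domain protein (chr1:135752530-135753401). Its values were 65.4 in HPC7-6, 84.7 in the median library and 124 in HPC7-5, with a mean of 89.0 ± 19.8. The CTCF match printed for Csrp1 lies 31 bp from this summit, and it was the only CTCF match among the 12 most intense members.

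The remaining members of the first 12 had mean fold enrichments between 52.5 and 78.2. In order they lay at the ends of Gm49337, 9930022D16Rik, Slc27a3, Igsf23, Pdik1l, Iqschfp with Schip1, Rcl1, Gorab and Wdcp. The one at Gm49337 (78.2 ± 18.6) was within Pik3r3, which encodes a regulatory subunit of phosphoinositide 3-kinase. Slc27a3 belongs to the fatty acid transport proteins, Igsf23 to the immunoglobulin superfamily, Pdik1l to the protein kinases and Rcl1 to the factors that process ribosomal RNA. HPC7-6 had the lowest value in 11 of the 12, and in Lars2 it was the second lowest.

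**Figure D3:**
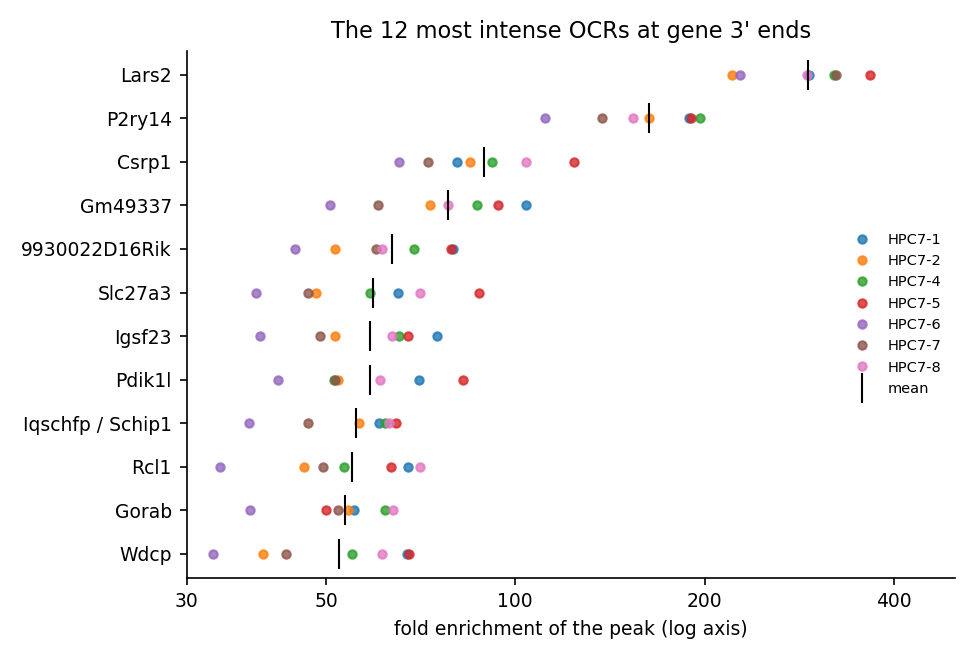
Fold enrichment on a log axis (x) of the 12 most intense members (y, by the genes whose ends lie within 1 kb), with 1 point per library and a bar at the mean. Lars2 (221 to 366) lies above the other members in every library, and HPC7-6 holds the lowest point in 11 of 12.

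At the other extreme were members near Spire2 (3.24 ± 0.554), Eif4h (3.25 ± 0.473), Nmd3 (3.38 ± 0.374), Gbx1 and Agap3 (3.53 ± 0.702) and Cops9 (3.57 ± 0.544). Eif4h encodes a translation initiation factor and Nmd3 an export adapter of the large ribosomal subunit. Their peaks were called in all 7 lists at a level close to the lowest fold enrichment of any member in a library, which was between 2.37 and 3.06.

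The OCRs next to each threshold of the rule are given as a description. The OCRs just inside 1 kb of an end, at Rerg (999 bp) and Phyhip (998 bp), had mean fold enrichments of 4.85 and 13.6, and those just outside, at Acoxl (1002 bp) and Gpt2 (1004 bp), had 12.8 and 9.22. Just under the width limit were Clec1a (1497 bp, 43.3) and P2ry14 (1496 bp, 163), and just over it Helz (1510 bp, 66.9) and Jdp2 (1511 bp, 20.98). Just beyond 3 kb from a start were Ankrd9 (3002 bp, 15.2) and 4930523C07Rik (3004 bp, 6.94), and just within it Clcn4 (2993 bp, 14.4) and Acta1 (2991 bp, 14.6).

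The side of the end made a small difference to intensity. Median fold enrichment upstream was 6.41 in HPC7-6, 8.76 in the median library and 11.8 in HPC7-8, and downstream 6.10, 8.40 and 10.9 in the corresponding positions. The log10 difference was 0.0204 ± 0.0119 (SD), a ratio of 1.05, and positive in 7 of 7 libraries (exact permutation test by sign flips, adjusted p = 0.0234). It did not hold with OCRs as near as 1 kb to a transcript start (-0.0052), with no limit of the width (-0.0028) or without HPC7-6 (0.0075, exact permutation test, adjusted p = 0.205). By the same exact test it was not passed with at least 6 lists (0.0170, adjusted p = 0.0682) or within 2 kb (0.0085, adjusted p = 0.15). Nor was it passed with every transcript end (0.0209, same exact test, adjusted p = 0.0625). It was larger at 0.0557 within 500 bp of an end and 0.0560 with the distance taken from the summit, positive in 7 of 7 libraries each, and at 0.0309 without HPC7-1 and 0.0340 without HPC7-2. By place, the median of the mean fold enrichment was 9.72 in 3' UTRs, 8.73 outside genes, 8.97 in other exons and 7.91 in introns.

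Members with a CTCF match were more intense than those without. A match to the CTCF core consensus, searched on both strands of the 100 bp to each side of a summit, was found in 114 members (11.97%). The share was 5.57% in intronic, 8.92% in intergenic and 6.82% in promoter OCRs searched in the same window. Here and below, promoter OCRs are those within 3 kb of any transcript start and under 1500 bp, so wider ones are left out. The median fold enrichment of members with a match was 8.29 in HPC7-6, 11.1 in the median library and 15.1 in HPC7-8, and of those without it 5.94, 8.16 and 10.7. All 7 libraries were higher with a match. The log10 difference was 0.133 ± 0.0232 (SD, n = 7), a ratio of 1.36, positive in 7 of 7 libraries (exact permutation test by sign flips, adjusted p = 0.0234). The ranges of the groups of OCRs overlapped widely, with 12 matches among the 100 most intense members and 5 among the 100 least intense.

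The matches were spread on both sides of the ends. They were in 12.1% of upstream and 11.9% of downstream members, at a median of 25 bp from the summit. In 68 members the match was on the strand of the gene and in 46 on the opposite strand. Of the members whose sites are printed above, Necap2 had a mean fold enrichment of 45.2 ± 9.43, Scgb1a1 of 44.3 ± 9.68, Skap2 of 38.5 ± 7.18, Aldh9a1 of 35.3 ± 5.93 and Wfikkn2 of 31.9 ± 5.74. Necap2 is a factor of clathrin-mediated uptake, and Skap2 is an adapter protein of Src family signalling in blood cells.

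**Figure D4:**
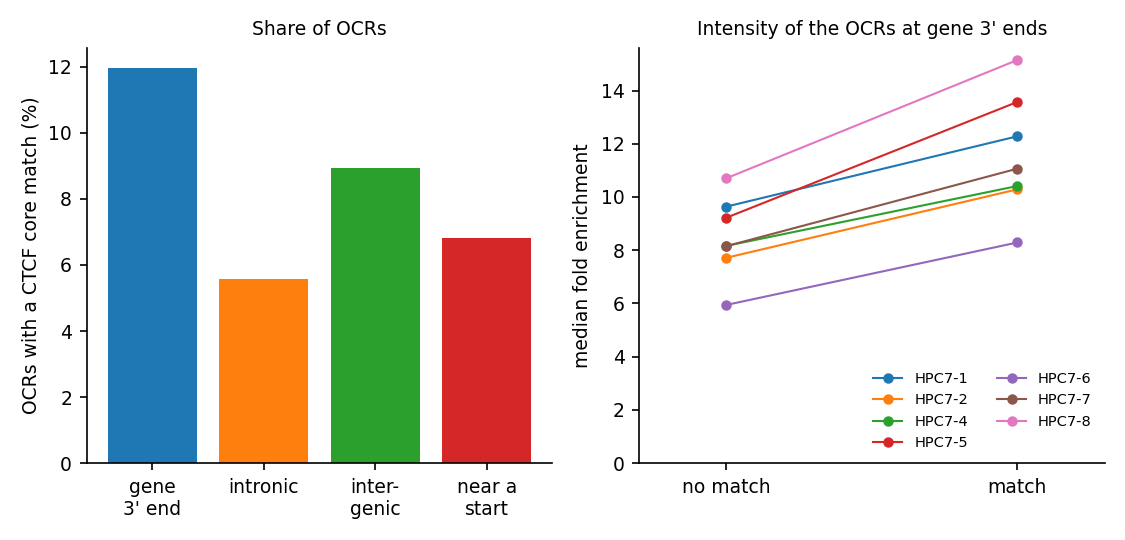
Left: percentage of OCRs (y axis) with a match to the CTCF core consensus within 100 bp of the summit, for shared OCRs at gene 3' ends and in 3 other positions (x axis). Right: median fold enrichment (y axis) of the members without and with a match (x axis), 1 line per library. The share is 11.97% at 3' ends against 5.57% to 8.92% elsewhere, and each of the 7 lines rises.

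Other motifs were searched in the same windows on both strands. AGATAA or TGATAA, the letters of GATA factors, were in 20.2% of members, against 27.9% of intronic, 25.9% of intergenic and 20.7% of promoter OCRs. TGANTCA, which takes any base at the centre and is thus wider than the AP-1 motif, was in 8.72% of members against 13.3%, 13.7% and 10.7%. TGTGGT (RUNX) was in 30.1% against 31.7%, 30.5% and 27.0%. CCGGAAG (ETS) was in 1.16% against 1.24%, 1.42% and 3.06%, and GGGCGG (SP and KLF factors) in 5.78% against 4.69%, 5.71% and 11.5%.

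In these motif shares, members were at the level of promoter OCRs for GATA and below all 3 classes for TGANTCA. They were nearer to intronic and intergenic OCRs for ETS and GGGCGG. Their windows had a median G+C of 50.2% and a median ratio of observed to expected CpG of 0.178. A ratio of 0.6 was reached by 2.10%, against 11.1% of promoter OCRs, which again are only those under 1500 bp. Within the members, those with a GATA match had a median fold enrichment of 10.0 against 8.74 without, and those with TGANTCA 10.1 against 8.75. Those with GGGCGG were at 10.4 against 8.80, those with a RUNX match at 8.64 against 8.94 and the 11 with an ETS match at 7.80 against 8.85. These shares and medians are descriptions with no test.

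The signal AATAAA, searched on the gene strand in the last 50 bases, was present at 62.8% of the ends with a member and 60.8% of the other eligible ends.

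Genes with a member within 1 kb of the 3' end more often had a peak at their start than the other genes, which include those with OCRs near the end in only some of the lists. An end was counted as eligible when at least 500 of the 2000 bp around it were eligible bases, and 968 of 13658 such ends (7.09%) had a member. In each library, the share of these 968 genes with a peak within 1 kb of the gene start was compared with that of the other 12690. It was 71.5% in HPC7-6, 72.0% in the median library and 75.1% in HPC7-1 for genes with a member. For the other genes it was 51.7%, 52.9% and 54.8% in the corresponding positions. The difference was 19.8 ± 0.639 percentage points (SD, n = 7) and positive in 7 of 7 libraries (exact permutation test by sign flips, adjusted p = 0.0234). It was 15.4 points among genes of at least 10 kb and 23.3 points with no limit of the width.

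Read from the start, a member was found at 9.54% of 7108 ends whose gene start had a peak in all 7 lists, at 8.13% of 726 with a peak in some lists, and at 3.97% of 5824 with none. By length, the share was 5.26% for genes under 10 kb, 7.87% from 10 to 30 kb, 8.06% from 30 to 100 kb and 6.42% above. The start peaks themselves differed little. Their median fold enrichment was 80.1 ± 13.4 for genes with a member and 77.3 ± 13.0 for the others. The log10 difference was 0.0155 ± 0.0064, a ratio of 1.04, positive in 7 of 7 libraries (same exact test, adjusted p = 0.0234). It was 0.0089 with CDS allowed and 0.0351 with no limit of the width.

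**Figure D5:**
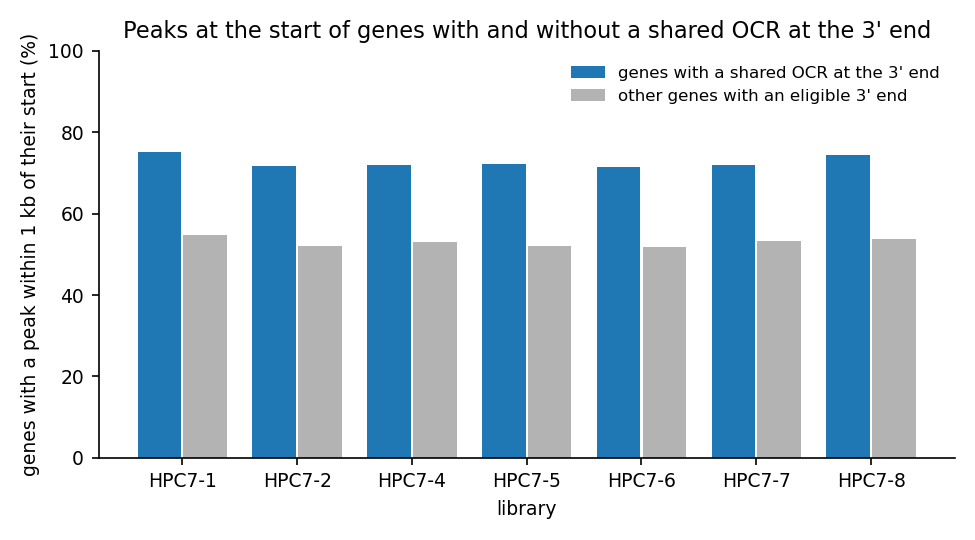
Percentage of genes with a peak within 1 kb of their start (y axis) in each library (x axis), for 968 genes with a member at the 3' end (blue) and 12690 other genes with an eligible end (grey). The blue bars lie between 71.5% and 75.1% and the grey bars between 51.7% and 54.8%.

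The start was in most cases the more intense of the pair, but only the member had to be under 1500 bp wide. OCRs within 3 kb of a start and under that limit had a median fold enrichment of 9.25 ± 1.72 (SD, n = 7). For 666 members the gene start had a peak in all 7 lists, and in 607 of these (91.1%) the end was below the start in every library. In 27 (4.05%) the end was above the start in every library, among them the members at Lars2, P2ry14, Csrp1 and 9930022D16Rik. The median ratio of start to end was 7.72. Across the members, intensity at the end and at the start had a Spearman's rho of -0.066. For 224 members there was no peak at the gene start in any list, including those at Gm49337, Igsf23 and Iqschfp.

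Gene pairs that end tail to tail were examined next. Of the 968 genes with a member, 161 (16.6%) had the 3' end of a protein-coding gene of the other strand within 5 kb downstream, and of the other 12690 genes 14.03% had. The 136 members at such ends had their summit between the ends in 72 cases and upstream of the nearer end in 64, and in 38 cases the OCR was within 1 kb of both ends. The most intense was at Wdcp, 2397 bp from the end of Mfsd2b, which encodes the sphingosine-1-phosphate exporter of red cells and platelets (52.5 ± 13.97). Then came Smtnl1 and Ube2l6, a ubiquitin-conjugating enzyme (841 bp apart, 46.3 ± 8.26), the C-type lectin genes Clec1a and Clec9a (9 bp, 43.3 ± 7.78), Zfp609 and Oaz2, an inhibitor of polyamine synthesis (2091 bp, 42.2 ± 10.6), and Clgn and Scoc (1532 bp, 37.9 ± 8.48). Of these 5, the summit was between the ends at Clgn and Scoc only.

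The difference in intensity between members at tail-to-tail ends and other members did not keep its direction across settings. The median of the mean fold enrichment was 9.53 in the 136 members and 8.83 in the rest. A partner's end had to lie downstream, so opposite-strand genes that overlap at their 3' ends were not counted as pairs. Members at such ends can be in the rest. Per library the log10 difference lay between -0.0072 (HPC7-1) and 0.0523 (HPC7-2), with a mean of 0.0251 ± 0.0199 (SD), above 0 in 6 of 7 libraries (exact permutation test by sign flips, p = 0.0313, adjusted p = 0.0341). The direction turned without HPC7-2 (-0.0136) and without HPC7-6 (-0.0050), where the members were chosen again from the remaining 6 lists. It also turned with OCRs found in at least 6 lists (-0.0324), with 10 kb between the ends (-0.0043) and with members as far as 2 kb from an end (-0.0014), and without HPC7-4 it was 0.0128. It was larger, and positive in 7 of 7 libraries, at 0.0680 within 500 bp of an end, 0.0702 with the distance taken from the summit and 0.0503 at a -log10 q from 5 upward.

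No gene had 3 members, and 28 genes had 2. The most intense such pair was at Osbpl3, an oxysterol-binding protein, with an OCR 1459 bp downstream (47.6 ± 11.7) and one 978 bp upstream of the end (24.3 ± 5.50). Clec1a and Clec9a shared the same 2 members, 1605 bp apart (43.3 ± 7.78 and 9.77 ± 1.74). Aldh9a1, an aldehyde dehydrogenase, had one at 1612 bp (35.3 ± 5.93), which holds the printed CTCF match, and one at 138 bp downstream (5.35 ± 0.903). Mtx2, a mitochondrial outer membrane protein, had 12.9 ± 4.42 upstream and 19.0 ± 3.59 downstream. In all, 57 members were within 1 kb of 2 ends, 54 of them of genes on both strands.

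Genes of the blood lineage were looked up in lists drawn up from general knowledge, and each count is read against the 7.09% of eligible ends with a member. Among hematopoietic transcription factors, 6 of 39 eligible ends had a member (15.4%). That at Tal1, a master regulator of blood formation, was the most intense and spanned chr4:115071269-115072759. It was at 17.1 in HPC7-5, 20.03 in the median library and 26.2 in HPC7-8, with a mean of 20.9 ± 3.10. Its summit lay 100 bp downstream of the end. Bach2 (13.3 ± 3.87), Cbfb, the partner of RUNX proteins (8.83 ± 2.11), Irf4 (8.77 ± 2.67), Ebf1, a B cell factor (7.29 ± 2.56), and Klf2 (6.92 ± 0.993) followed. Irf4 and Ebf1 had no peak at the gene start in any list, and the members at Bach2, Cbfb and Ebf1 held a CTCF match.

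Among blood receptors and signalling genes, 8 of 38 eligible ends had a member (21.1%). Rasgrp1, an activator of Ras (15.5 ± 2.74), and the kinase Lyn (14.9 ± 3.23) were highest. Flt3, a cytokine receptor of progenitors, had 10.4 ± 1.56 in an intron 972 bp before the end. The receptor chains Il6ra (9.22 ± 2.99) and Il6st (8.25 ± 2.21), the phosphatase Inpp5d (9.01 ± 2.10), the kinase Pik3cd (6.04 ± 1.33) and the receptor Tgfbr2 (4.02 ± 0.327) completed the list.

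Of chromatin regulators, 3 of 25 had a member, namely Tet2 (11.8 ± 3.29), Ep300 (8.63 ± 2.86) and Tet1 (7.17 ± 2.21). In the cell cycle list it was 2 of 23 (8.70%), Cdc25a (38.4 ± 8.41) and Cdkn1b (5.10 ± 0.971), and among ribosomal protein genes 1 of 11 (9.09%), Rpl22 (27.5 ± 6.24). Of 24 eligible ends of genes used by other tissues, none had a member. The lists are short, and their counts carry no test.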

How the data were processed

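Bulk ATAC-seq peak lists of 7 HPC7 libraries (1 group, mm10) were used. Before deposit, the authors removed adapters (Cutadapt), mapped reads (BWA-mem) and ran MACS2 on every library by itself; versions and options are not given in the sources used here. The deposited lists give per peak a score, a fold enrichment (ratio of reads at the summit to background), a −log10 p and −log10 q, and the summit offset; whether the authors scaled libraries to each other is not given in the sources used here. Fold enrichment was used as deposited; the score was not used. Neither library depth nor counts are in the lists.

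Peaks were merged at 1 bp overlap, and members and classes were set with GENCODE M21. The highest peak of a library in an OCR gave its intensity. Per-library differences were tested with a two-sided exact sign-flip permutation test (128 patterns, smallest p = 0.0156), Benjamini-Hochberg adjusted over 12 tests, 2 of them on width, whose results are given without p-values because the rule used width. These p-values measure the spread between libraries over the same OCRs, not between genes. The 100 bp to each side of the summits were aligned to the placed chromosomes with blastn 2.17.0 (95% identity, e-value 1e-10). The members, lists and tests were chosen with earlier results of these data known. Named were the 12 most and 5 least intense members, the 5 most intense tail-to-tail pairs, genes with 2 members (first 5), list members, the OCRs next to each threshold and 6 CTCF sites; Cdc25a, Cdkn1b, Rpl22 and the 6 sites with other motifs were named in addition after their values were seen. Alternatives covered the q threshold, list length, sharing, distances, transcript ends, CDS, width, −log10 p as intensity and each library left out. Merging was tested against bedtools 2.31.1 and the profile on simulated data, with Python 3.11.15, numpy 2.4.6 and pandas 2.3.3.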

Additional observations from a re-analysis of the deposited data

Results flagged for a closer look

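In 3 of 28 measures, 1 library lay far from the other 6, with a gap to its neighbour above Dixon's critical value, as chance gives in about 1 of 20 measures. All 3 concern peak width in HPC7-1, the library with the longest list. The median width of the highest peak in a member was 645 bp there and 500.5 bp in the next library. The members' excess over intronic OCRs was 63 bp, against 24 bp in the next library, and over intergenic OCRs 75 bp, against 30 bp.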

How the results depend on the processing

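Over 15 results, 220 of 269 alternative values kept their direction and their side of the threshold or, for values with no test, stayed close to the main value. In 26 the test was no longer passed, in 4 it was newly passed, 13 turned direction and 6 values with no test moved further. These counts include the peak width results, many of them among the 26, although width is given only as a description because the rule used it. The intensity by CTCF match, the share of open gene starts and the intensity of start peaks passed under every alternative run for them. Where a value below changed, the cause was not tested.

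Within 500 bp of the end there were 609 members and within 2 kb 1612. Tail-to-tail pairs had a log10 difference of -0.0324 with at least 6 lists, -0.0014 within 2 kb, -0.0124 with every transcript end, -0.0186 with starts as near as 1 kb, -0.0043 with 10 kb between the ends and 0.0053 with CDS allowed; with 1 library left out it ran from -0.0136 to 0.0373. It was higher within 500 bp (0.0680), by the summit (0.0702) and at a -log10 q from 5 upward (0.0503). The upstream minus downstream difference was 0.0170 with at least 6 lists, 0.0085 within 2 kb and 0.0209 with every transcript end. It was -0.0052 with starts as near as 1 kb and -0.0028 with no limit of the width. None of these passed the test. With 1 library left out it ran from 0.0075 to 0.0340. It was higher within 500 bp (0.0557) and by the summit (0.0560).

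Against intronic OCRs, intensity differed by 0.0043 with every peak, shared or not, by 0.0079 without CTCF matches and by 0.0172 by the summit. With 1 library left out it differed by 0.0165 to 0.0309. Against intergenic OCRs it passed at 0.0177 with equal list lengths, 0.0206 within 500 bp, 0.0176 with CDS allowed and 0.0162 with no limit of the width, and it turned to -0.0143 with every peak and to -0.0074 without CTCF matches. By the summit it was 0.0018, and with 1 library left out it ran from -0.000142 (without HPC7-2) to 0.0142. Against promoter OCRs it was -0.0084 within 500 bp, where the test was no longer passed. It was -0.0752 with the start distance set at 1 kb for members and promoter OCRs alike, and -0.304 with no limit of the width. With 1 library left out it ran from -0.0306 to -0.0175. The width difference from intronic OCRs was 18.3 bp at a -log10 q from 5 upward, 11.3 bp with every transcript end, 4.79 bp by the summit and 46.3 bp with no limit of the width, and from 19.3 to 24.8 bp with 1 library left out. From intergenic OCRs it was 17.6 bp within 2 kb, 10.4 bp with every transcript end, 2.64 bp by the summit and 43.1 bp with no limit of the width, and from 16.5 to 24.0 bp with 1 library left out. With 6 libraries the smallest p is 0.0313, so 1 library of the opposite sign is enough to lose a call.

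The log2 density ratio to the flanks was 0.0026 upstream with equal list lengths, and 0.0039 upstream and -0.0191 downstream with every transcript end. It was 0.0393 upstream at a -log10 q from 5 upward, 0.0464 upstream within 500 bp, and 0.328 downstream against flanks of 5 to 10 kb. The log10 difference of start peaks ran from 0.0089 to 0.0351 over the alternatives other than leaving out a library. The density at 200 to 500 bp over that at the end was 2.38 downstream and 1.91 upstream with every transcript end, and 2.65 and 2.07 with starts as near as 1 kb. Every tested difference was taken within a library, and the libraries form 1 group, so there were no groups to pair by replicate number. Depth is not in the lists, and an OCR missing from the shortest list, with 84593 peaks, could not be a member.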
